A study of Rattus norvegicus with 9 samples.

Results

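Stereocilia, the actin-filled projections on the apical surface of the hair cells (HCs) of the inner ear, owe their stiffness and length to a group of actin bundling and tip proteins. The genes for 10 of these proteins were followed in the vestibular epithelium of rats exposed to 3,3'-iminodipropionitrile (IDPN), a nitrile that is toxic to HCs. They were chosen by symbol and comprise 5 actin crosslinkers (Espn, Espnl, Fscn2, Pls1 and Pls3), 3 proteins of the tip (Eps8, Eps8l2 and Whrn) and 2 other actin-associated proteins (Xirp2 and Lmo7). Each of the 10 symbols matched 1 row of the table of 32883 genes, and all 10 were among the 15517 genes that passed a filter on low counts and were tested.

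Male Long-Evans rats received 20 mM IDPN in their drinking water for 3 weeks (IDPN3w) or 7 weeks (IDPN7w), and rats of the Control group received plain water. Per the methods of the study, the single Control group held animals killed at each time point, and it served both comparisons, so these are not independent of each other. Exposed rats were killed on the last day of treatment, so length of exposure and time of killing cannot be told apart. Each library was made from the cristae and utricles of 1 rat by SMARTseq2, in which polyadenylated RNA is copied into full-length cDNA and amplified, and there were 3 libraries in each of the 3 groups. Library totals ran from 31100118 to 46018385 estimated counts, and the members had between 502 counts (Whrn, IDPN3w replicate 3) and 28505 counts (Pls1, IDPN7w replicate 1).

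The libraries fell into 2 sets by the number of genes detected once totals were thinned to the same depth. Control replicate 3 and IDPN3w replicates 1 and 2 had 15464, 15498 and 15387 genes, whereas the other 6 libraries had between 16834 and 17312. IDPN7w had no library in the set with fewer genes, and for this reason differences within each set are given beside the results that split along it. No pair of libraries of a group agreed within sampling noise, where a chi-square per gene of 1 would be sampling alone and the lowest was 18.8. Replicate numbers were assigned in order of deposit and pair no animals. The library titles begin with a tag whose meaning is not known here. IDPN7w replicate 1 shares its tag with IDPN3w replicate 1, and IDPN7w replicates 2 and 3 share another. IDPN3w replicates 2 and 3 share a further tag, and the Control libraries have one of their own. The part of the tag in the results was not tested.

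In a stereocilium, parallel actin filaments are crosslinked into a rigid core by espins, fascins and plastins, and a complex of a myosin motor, whirlin and EPS8 at the tip sets the length of the core. At the base, the core tapers into a rootlet that is anchored in the cuticular plate, the actin mesh beneath the apical membrane. Mutations in several of these genes cause deafness or balance defects in mice and humans. In bulk tissue such as this, fewer HCs and less RNA per HC cannot be told apart.

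Levels are given in CPM, counts divided by the library total after its correction by the trimmed mean of M-values (TMM). A gene was called when its edgeR adjusted p was under 0.05 and its fold change was above 1.5. In IDPN3w, 2 of the 10 members were called lower than in Control (Espnl and Xirp2), against 1.21% of the 15517 genes tested, and 0 were called higher, against 0.438%. In IDPN7w, 3 of 10 were called lower (Espn, Espnl and Xirp2), against 3.13% of all genes, and 0 were called higher, against 2.00%. At an unadjusted p under 0.05, 2 members passed in IDPN3w and 4 in IDPN7w, the added gene being Eps8l2, where 2444 and 2992 of the 15517 genes passed. DESeq2 called none of the members higher in either group.

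The median log2 fold change over the 10 members was 0.07 in IDPN3w and -0.16 in IDPN7w, where the median over all genes tested was 0.00 and 0.01. By ranges alone, 3 members in IDPN3w (Espnl, Whrn and Xirp2) had every exposed library below every Control library, against 10.9% of all genes, and Pls1 had every exposed library above, against 8.78%. In IDPN7w, 3 members lay wholly below (Espn, Espnl and Xirp2), against 17.1%, and 2 wholly above (Pls3 and Eps8l2), against 17.2%. Whether these member counts differ from the shares of all genes was not tested.

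**Figure D1:**
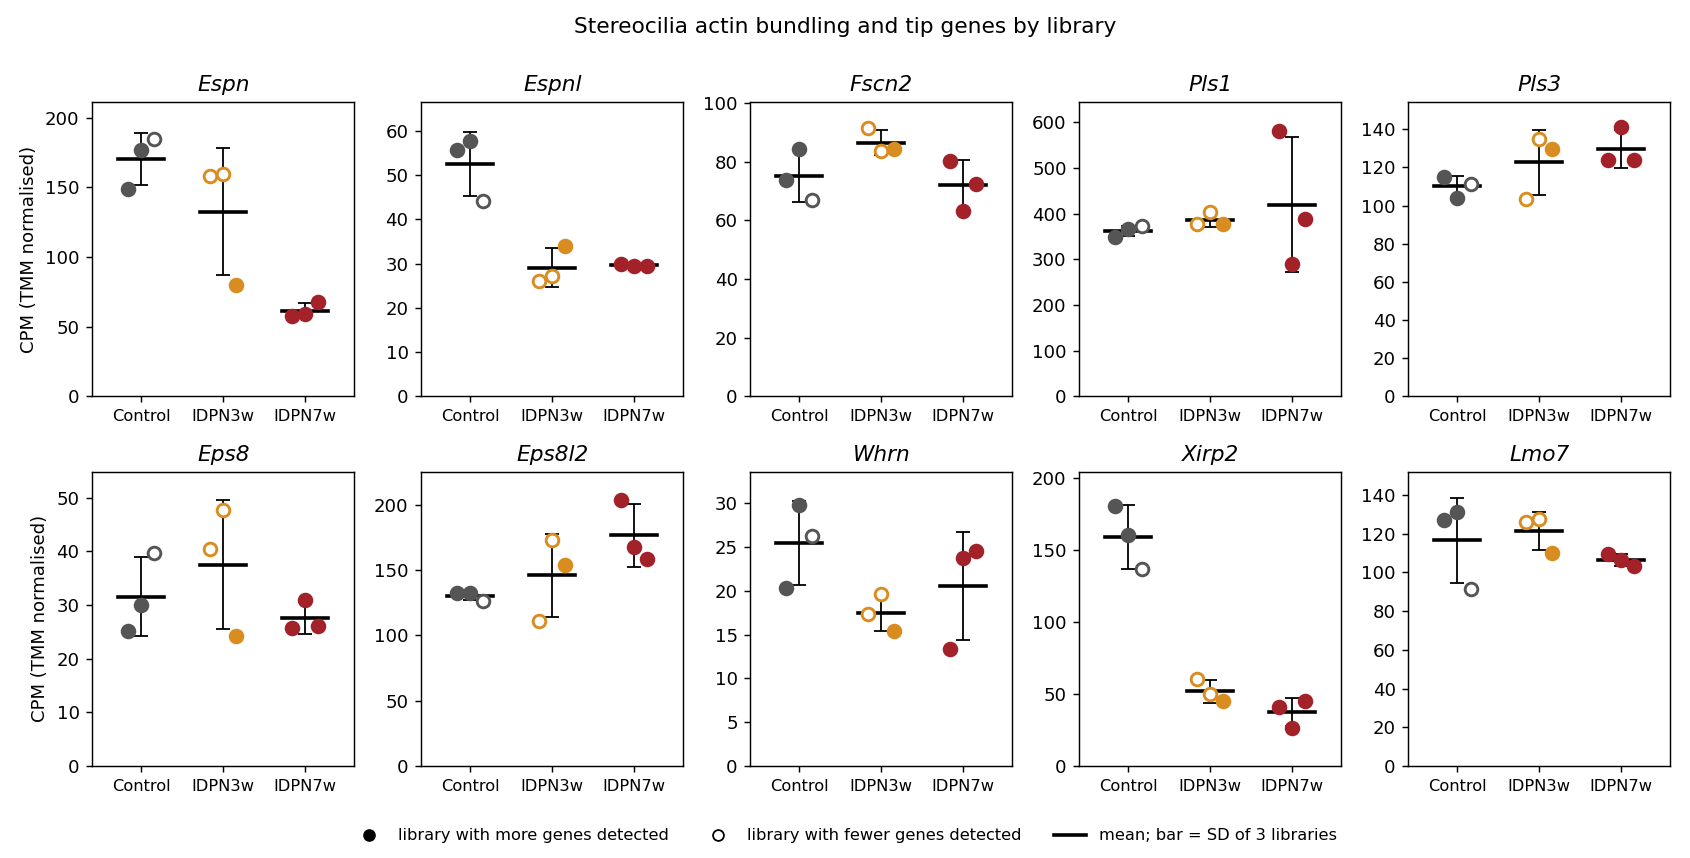
Level of each of the 10 members in CPM (vertical axis, from 0) in the 9 libraries by group; open points are the 3 libraries with fewer genes detected, the bar is the mean and the whisker the SD of 3 libraries. Xirp2 lies between 136 and 180.5 CPM in Control and at or below 60.2 CPM in every exposed library, while Espn is low in IDPN7w and in IDPN3w replicate 3.

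Of the crosslinkers, Espn (ENSRNOG00000010270) encodes espin, an actin bundler whose loss causes short, weak stereocilia and deafness in the jerker mouse. Espn was at 149, 177 and 185 CPM in Control replicates 1 to 3. It was at 158, 159.7 and 79.7 CPM in IDPN3w replicates 1 to 3, and at 57.5, 59.1 and 68.0 CPM in IDPN7w replicates 1 to 3. The IDPN7w libraries were all below the others, whereas IDPN3w replicates 1 and 2 lay among the Control libraries and replicate 3 near those of IDPN7w.

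At 7 weeks Espn was 170 ± 18.7 CPM in Control and 61.5 ± 5.63 CPM in IDPN7w (mean ± SD, n = 3), a log2 fold change of -1.47 with SE 0.23 (edgeR adjusted p = 0.00499). At 3 weeks the log2 fold change was -0.36, with a 95% interval from -0.87 to 0.14 (edgeR adjusted p = 0.483). The split in IDPN3w followed the number of genes detected. Within the set with fewer genes, the difference of IDPN3w from Control in log2(CPM + 0.5) was -0.22, and within the set with more genes, where IDPN3w has 1 library, it was -1.02. With the 6 libraries with more genes alone, an alternative chosen after the data were seen in which the lone IDPN3w library is assumed to vary like the other groups, Espn was called lower in IDPN3w (log2 fold change -1.03, edgeR adjusted p = 0.0270), and over all alternatives this adjusted p ranged from 0.0270 to 0.716. The part of library quality in the 3-week values of Espn was not tested further.

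Between the exposed groups, Espn was lower in IDPN7w than in IDPN3w by a log2 fold change of -1.11, with a 95% interval from -1.62 to -0.60, but the edgeR adjusted p of 0.0774 missed the threshold. DESeq2 called it (adjusted p = 0.000392), as did edgeR without the filter on low counts (edgeR adjusted p = 0.0474), with at least 10 counts required in every library (edgeR adjusted p = 0.0419), or without IDPN3w replicate 3 (log2 fold change -1.37, edgeR adjusted p = 0.00415). With the 6 libraries with more genes alone, the log2 fold change of Espn between the exposed groups was -0.38 (edgeR adjusted p = 0.377), and with the set of fewer genes as a covariate it was -0.66 (edgeR adjusted p = 0.496). The size of this difference varied with how the split by genes detected was treated. Over all alternatives the adjusted p ran from 0.000392 to 0.496.

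Espnl (ENSRNOG00000024717) encodes espin-like, a relative of espin found in stereocilia. It was at 55.8, 57.7 and 44.2 CPM in Control replicates 1 to 3. The IDPN3w libraries had 26.1, 27.2 and 34.0 CPM and the IDPN7w libraries 30.0, 29.4 and 29.5 CPM. All 6 exposed libraries were below all Control libraries, and the IDPN7w libraries lay within the range of IDPN3w.

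The level of Espnl fell from 52.6 ± 7.27 CPM in Control to 29.1 ± 4.30 CPM in IDPN3w, a log2 fold change of -0.85 with SE 0.16 (edgeR adjusted p = 0.0236). In IDPN7w it was 29.6 ± 0.315 CPM, and the log2 fold change was -0.83 with SE 0.15 (edgeR adjusted p = 0.0115). The 2 exposed groups differed by a log2 fold change of 0.03, with a 95% interval from -0.32 to 0.37. Unlike for Espn, the difference of IDPN3w from Control was alike in both sets of libraries (-0.72 with fewer genes and -0.73 with more genes, in log2(CPM + 0.5)).

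The call of Espnl was close to its threshold. In IDPN3w it was lost with the libraries of the 2 groups alone and with the 6 libraries with more genes (edgeR adjusted p = 0.0536 with the latter). It was also lost there without Control replicate 1 or 2, IDPN3w replicate 1 or 2 or IDPN7w replicate 3, with edgeR adjusted p up to 0.106 and log2 fold changes between -0.98 and -0.78 when any library was left out. In IDPN7w it was lost without Control replicate 1 or 2 or any of the IDPN7w libraries, with adjusted p up to 0.0560.

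Fscn2, Pls1 and Pls3 were not called in any comparison. Fscn2, a fascin of HCs and photoreceptors that is needed to maintain stereocilia, was at 73.8, 84.4 and 67.0 CPM in Control, at 91.5, 83.7 and 84.4 CPM in IDPN3w and at 80.3, 63.2 and 72.6 CPM in IDPN7w. The 3 groups overlapped, apart from IDPN7w against IDPN3w. Its log2 fold change was 0.21 in IDPN3w (95% interval -0.07 to 0.48) and -0.06 in IDPN7w (95% interval -0.34 to 0.22), so that at 7 weeks a fall of the size seen for Espn lies outside the interval.

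Pls1 encodes plastin 1 (fimbrin), an abundant crosslinker of stereocilia that is also found in the microvilli of other epithelia. It was at 349, 365 and 372 CPM in Control, at 378, 403 and 376 CPM in IDPN3w and at 581, 289.7 and 388 CPM in IDPN7w. The IDPN3w libraries lay just above those of Control, and the IDPN7w libraries spread on both sides of them, with a coefficient of variation of 35.3% against 3.20% in Control. The log2 fold change in IDPN7w was 0.21 (edgeR adjusted p = 0.645), and it was -0.09 without IDPN7w replicate 1.

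IDPN7w replicate 1 stood apart from the other 2 libraries of its group in other genes as well. The summed level of 8 broad epithelial and housekeeping genes was 5188 CPM in it and 3769.6 and 3778 CPM in replicates 2 and 3. The part of this difference in the value of Pls1 was not tested.

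Pls3, which encodes plastin 3, a crosslinker of many cell types, was at 115, 104 and 111 CPM in Control, at 103, 135 and 129.7 CPM in IDPN3w and at 124, 141 and 124 CPM in IDPN7w. The IDPN7w libraries lay above those of Control without overlap. Its log2 fold change in IDPN7w was 0.23, with a 95% interval from -0.03 to 0.49 (edgeR adjusted p = 0.318), and in IDPN3w it was 0.15 (edgeR adjusted p = 0.574).

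At the tip, Eps8 encodes an actin capping and bundling protein without which stereocilia stay short. It was at 25.1, 30.1 and 39.6 CPM in Control, at 40.4, 47.8 and 24.3 CPM in IDPN3w and at 25.6, 30.96 and 26.1 CPM in IDPN7w. The groups overlapped, and the 3 libraries with fewer genes detected held the highest values. Within the sets, the difference of IDPN3w from Control in log2(CPM + 0.5) was 0.15 with fewer genes and -0.18 with more genes. The log2 fold change was 0.25 in IDPN3w (95% interval -0.32 to 0.81) and -0.20 in IDPN7w (95% interval -0.76 to 0.37), so changes of either sign within these bounds could not be told from none.

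Eps8l2, a relative of Eps8 that helps to maintain the tips, was at 132, 133 and 127 CPM in Control and at 111, 173 and 154 CPM in IDPN3w. In IDPN7w it was at 204, 167 and 158 CPM, above every Control library. The log2 fold change in IDPN7w was 0.44, with a 95% interval from 0.09 to 0.79, but the edgeR adjusted p was 0.156 and the gene was not called.

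Whrn encodes whirlin, a scaffold that MYO15A carries to the tip together with EPS8. It was at 20.3, 29.8 and 26.3 CPM in Control, at 17.4, 19.7 and 15.4 CPM in IDPN3w and at 13.4, 23.7 and 24.5 CPM in IDPN7w. The IDPN3w libraries lay below Control and the IDPN7w libraries overlapped it. Its log2 fold change was -0.54 in IDPN3w (95% interval -1.10 to 0.02, edgeR adjusted p = 0.334) and -0.31 in IDPN7w (edgeR adjusted p = 0.582).

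Of the other members, Xirp2 (ENSRNOG00000034258) encodes an actin-binding repeat protein of HC stereocilia and the cuticular plate, which is also known from striated muscle and is needed to maintain and repair stereocilia. Xirp2 was at 180.5, 160.2 and 136 CPM in Control replicates 1 to 3. It was at 60.2, 50.2 and 44.9 CPM in IDPN3w replicates 1 to 3 and at 40.7, 26.2 and 44.9 CPM in IDPN7w replicates 1 to 3. No exposed library reached the lowest Control library, and the exposed groups overlapped each other.

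Of the 10 members, Xirp2 had the largest fold change in both comparisons with Control. Its mean was 159 ± 22.1 CPM in Control, 51.8 ± 7.77 CPM in IDPN3w and 37.3 ± 9.81 CPM in IDPN7w, 3.07-fold lower after 3 weeks (log2 fold change -1.62, SE 0.20, edgeR adjusted p = 0.00467) and 4.27-fold lower after 7 weeks (log2 fold change -2.09, SE 0.21, edgeR adjusted p = 0.000428). It was called in both under every alternative run, with an adjusted p of at most 0.0408 and 0.00294. Within the sets of libraries the difference of IDPN3w from Control in log2(CPM + 0.5) was -1.30 with fewer genes and -1.91 with more genes. IDPN7w and IDPN3w differed by a log2 fold change of -0.47, with a 95% interval from -0.92 to -0.03 (edgeR adjusted p = 0.333).

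Since Xirp2 is also a muscle gene, the 14 skeletal and cardiac muscle markers were looked at, of which 10 had a row. Ckm, Tnni2, Tnnt3, Myl1, Myh7 and Acta1 were under 1 CPM on average over the 9 libraries. The most abundant was Myh4, a myosin heavy chain, at 16.4, 3.26 and 0.760 CPM in Control, 54.0, 55.1 and 39.2 CPM in IDPN3w and 157, 143 and 161 CPM in IDPN7w. Of the 5 tested, 0 were called in IDPN3w by edgeR, and in IDPN7w Myh4 was called higher (log2 fold change 4.48, edgeR adjusted p = 0.00889) and Tnnc2, a troponin, lower (-2.05, edgeR adjusted p = 0.00269). The size for Myh4 hung on Control replicate 1, without which its log2 fold change was 6.27, and it was 3.95 without Control replicate 3. With the 6 libraries with more genes, the call of Myh4 was lost (edgeR adjusted p = 0.0580). The summed level of the list was 45.8, 30.6 and 18.9 CPM in Control, 69.5, 71.0 and 64.3 CPM in IDPN3w and 171, 164 and 179.5 CPM in IDPN7w, most of it Myh4 in the exposed libraries. The list did not go 1 way: Neb, which encodes nebulin, was below Control in all 6 exposed libraries without being called (log2 fold changes -2.39 and -0.80, edgeR adjusted p = 0.0663 and 0.479), and Des, which encodes desmin, was above Control in IDPN7w without being called (1.89, edgeR adjusted p = 0.115). The part of muscle in the values of Xirp2 was not tested.

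Lmo7, which encodes a LIM domain protein of the cuticular plate and of cell junctions, was at 127, 131 and 91.4 CPM in Control, at 126, 128 and 110.1 CPM in IDPN3w and at 109, 107 and 103 CPM in IDPN7w. The groups overlapped in both comparisons with Control. Within the sets, the difference of IDPN3w from Control in log2(CPM + 0.5) was 0.47 with fewer genes and -0.23 with more genes. The log2 fold change of Lmo7 was 0.06 in IDPN3w (95% interval -0.25 to 0.36) and -0.13 in IDPN7w (95% interval -0.43 to 0.17).

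**Figure D2:**
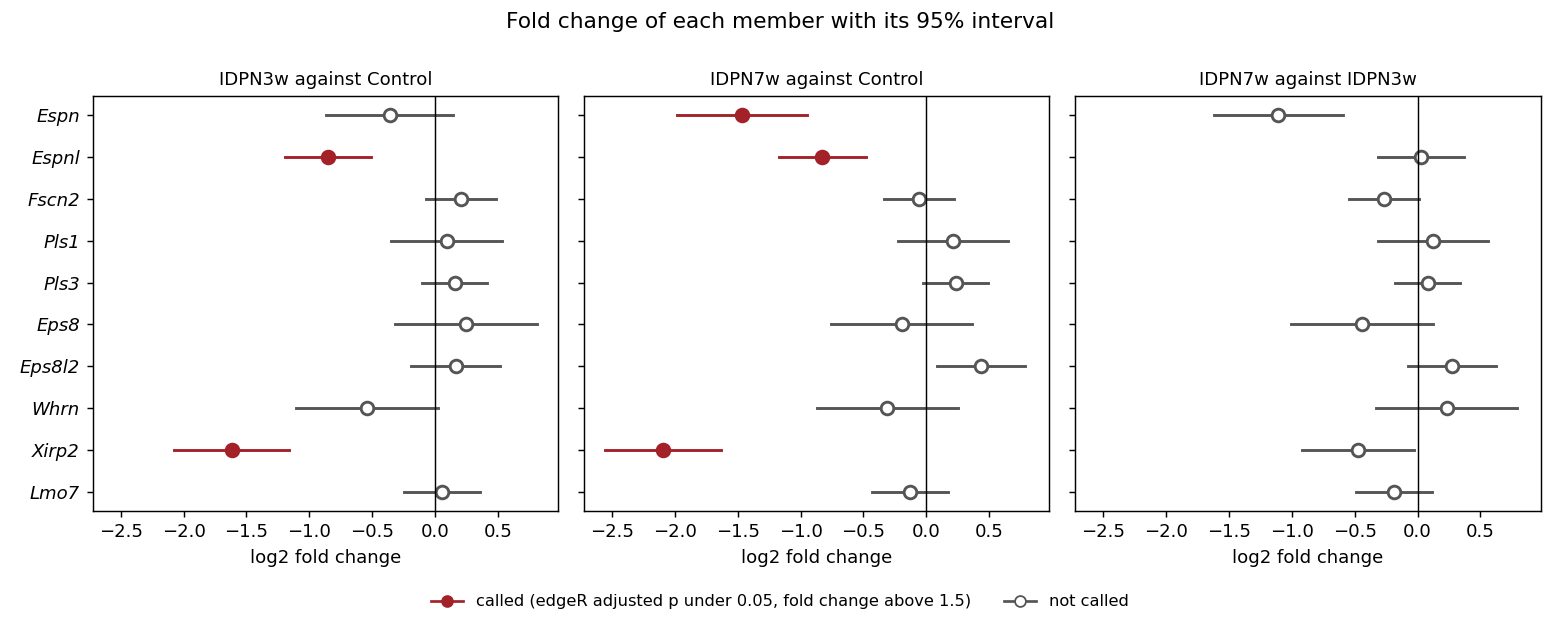
Log2 fold change (horizontal axis) of each of the 10 members in the 3 comparisons, with lines for 95% intervals from the edgeR fit; filled points are called. Espnl and Xirp2 are called in both comparisons with Control, Espn in IDPN7w (-1.47), and no member is called between IDPN7w and IDPN3w.

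Between the exposed groups, edgeR called 0 of 10 members lower and 0 higher, against 0.135% and 0.348% of all genes. At an unadjusted p under 0.05 there were 2 members (Espn and Xirp2, both lower in IDPN7w), where 2140 of the 15517 genes passed, and DESeq2 called 1 member (Espn).

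The promoters of the 3 called members are shown because all 3 were lower in IDPN7w (in IDPN3w, Espn overlapped Control), and they came from a table of RefSeq starts that held 9 of the 10 members. Each window has 300 bases, from 250 before to 50 after the start, on GRCr8. Capitals mark the E-box CAGNTG, a motif bound by basic helix-loop-helix factors, read on both strands.
Espn, chr5:167942935-167943234, minus strand: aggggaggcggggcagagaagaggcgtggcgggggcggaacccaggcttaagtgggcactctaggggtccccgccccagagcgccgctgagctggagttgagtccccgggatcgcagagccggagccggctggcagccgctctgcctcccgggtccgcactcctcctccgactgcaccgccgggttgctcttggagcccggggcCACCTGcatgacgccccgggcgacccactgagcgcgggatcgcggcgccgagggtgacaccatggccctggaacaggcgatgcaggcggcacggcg
Espnl, chr9:99359328-99359627, plus strand: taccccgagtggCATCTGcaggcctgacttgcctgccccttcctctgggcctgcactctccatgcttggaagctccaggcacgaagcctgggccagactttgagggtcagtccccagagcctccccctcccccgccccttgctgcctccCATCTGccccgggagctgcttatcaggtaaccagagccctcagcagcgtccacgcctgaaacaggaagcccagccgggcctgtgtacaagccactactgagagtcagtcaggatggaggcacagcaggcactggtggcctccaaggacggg
Xirp2, chr3:72533936-72534235, plus strand: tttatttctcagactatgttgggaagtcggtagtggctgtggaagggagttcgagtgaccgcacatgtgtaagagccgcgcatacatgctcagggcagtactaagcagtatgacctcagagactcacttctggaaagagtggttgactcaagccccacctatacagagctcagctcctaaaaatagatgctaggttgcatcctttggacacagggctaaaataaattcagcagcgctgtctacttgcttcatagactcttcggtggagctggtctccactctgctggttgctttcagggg
Espn held 1 E-box, starting at base -46, and Espnl held 2, starting at -238 and -101, whereas Xirp2 held 0. Of 33469 promoters of this length, 50.2% hold the motif. Among the members that were not called, the windows of Pls1, Pls3, Eps8l2 and Lmo7 also held it, and those of Fscn2 and Whrn did not. The other motif searched, ATTAAT, which reads the same on both strands, was in 0 of the 3 windows shown and in 5.21% of all promoters. These matches describe the letters of the windows and no binding was measured.

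Genes whose pattern over the 9 libraries was most like that of a member were sought among 9852 genes with a mean of at least 10 CPM in Control, by the root mean square difference of log2(CPM + 0.5) centred on the Control mean. For Xirp2 they were Rprm (difference 0.24), Cdh18 (0.25) and Lhb (0.30). Rprm, which encodes an inhibitor of the cell cycle, was at 86.9, 94.3 and 97.9 CPM in Control, 31.2, 29.0 and 34.9 CPM in IDPN3w and 21.5, 19.5 and 25.4 CPM in IDPN7w. Its exposed libraries were all below Control, with log2 fold changes of -1.55 and -2.07 (edgeR adjusted p = 0.000777 and 4.19e-05). Cdh18, a cadherin, had log2 fold changes of -1.50 and -2.27, and Lhb, the beta subunit of luteinising hormone, -1.72 and -1.98.

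For Espnl the most alike were Cemip, Scaper and Pcsk5, with differences of 0.13, 0.14 and 0.14. Cemip, which is involved in the breakdown of hyaluronan, was at 211, 229 and 202 CPM in Control, 115, 109.96 and 119 CPM in IDPN3w and 129, 140.1 and 117 CPM in IDPN7w. As for Espnl, IDPN3w and IDPN7w lay at one level below Control. All 6 of these genes were called lower in both comparisons with Control. They were picked for likeness to members called in both, so their being lower is no separate result. In IDPN3w the call was lost without Control replicate 1 for Cdh18, Scaper and Pcsk5, with log2 fold changes of -1.35, -0.63 and -0.69. Over the 18 alternatives, the call in IDPN3w was lost in 12 for Scaper (edgeR adjusted p up to 0.167) and in 4 for Pcsk5 (up to 0.0870). In IDPN7w that of Pcsk5 was lost in 2, among them without Control replicate 1 (edgeR adjusted p = 0.0504). Nothing about shared function or control follows from this likeness.

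The members were next set beside HC markers of the same library, to see which of them fell more or less than the mean of these chosen markers. The mean log2(CPM + 0.5) of the 17 HC markers with a row, none of them a member, was 5.83, 6.00 and 5.98 in Control, 5.25, 5.19 and 4.94 in IDPN3w and 5.01, 4.79 and 5.03 in IDPN7w. It was lower than in Control by 0.81 in IDPN3w and by 0.99 in IDPN7w on the log2 scale. The markers did not fall evenly, with log2 fold changes in IDPN3w from -3.38 for Pcdh15 to 0.55 for Gfi1. In IDPN7w they ran from -2.75 for Pcdh15 to -0.12 for Tmie. Pcdh15, which weighs on the mean, was at only 0 to 1.83 CPM in IDPN3w. The median of the same markers was 5.22, 5.30 and 5.77 in Control, 4.75, 5.46 and 4.53 in IDPN3w and 4.24, 4.37 and 4.53 in IDPN7w, so that by the median IDPN3w overlapped Control, with replicate 2 above 2 of its libraries.

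Relative to these markers, Xirp2 was lower than in Control in both groups, by 0.80 in IDPN3w and 1.11 in IDPN7w on the log2 scale, with no overlap. Espn was lower in IDPN7w by 0.47, again without overlap, and overlapped Control in IDPN3w (difference 0.39). Espnl overlapped Control in both groups, with differences of -0.03 and 0.18. With the median of the markers in place of the mean, the differences in IDPN3w were 0.09 for Espn and -0.33 for Espnl. In IDPN3w 1 of 10 members was thus below Control on this scale, against 0.934% of all genes, and in IDPN7w 2 of 10, against 1.23%.

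Fscn2, Pls1, Pls3, Eps8, Eps8l2 and Lmo7 were above Control relative to the markers in both groups, without overlap. These are 6 of 10 members, against 60.9% of all genes in IDPN3w and 80.3% in IDPN7w (most genes did not fall as the markers did). Fscn2 stood 1.02 above Control in IDPN3w and 0.93 above in IDPN7w on the log2 scale. The exact two-sided permutation test of 3 against 3 libraries gave p = 0.1 for each member without overlap, which is the smallest p it allows. With the median of the markers in place of the mean, the number of members without overlap in IDPN3w was 3 in place of 7. Fscn2 was then 0.72 above Control in IDPN3w and overlapped it, and it was 0.99 above in IDPN7w.

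**Figure D3:**
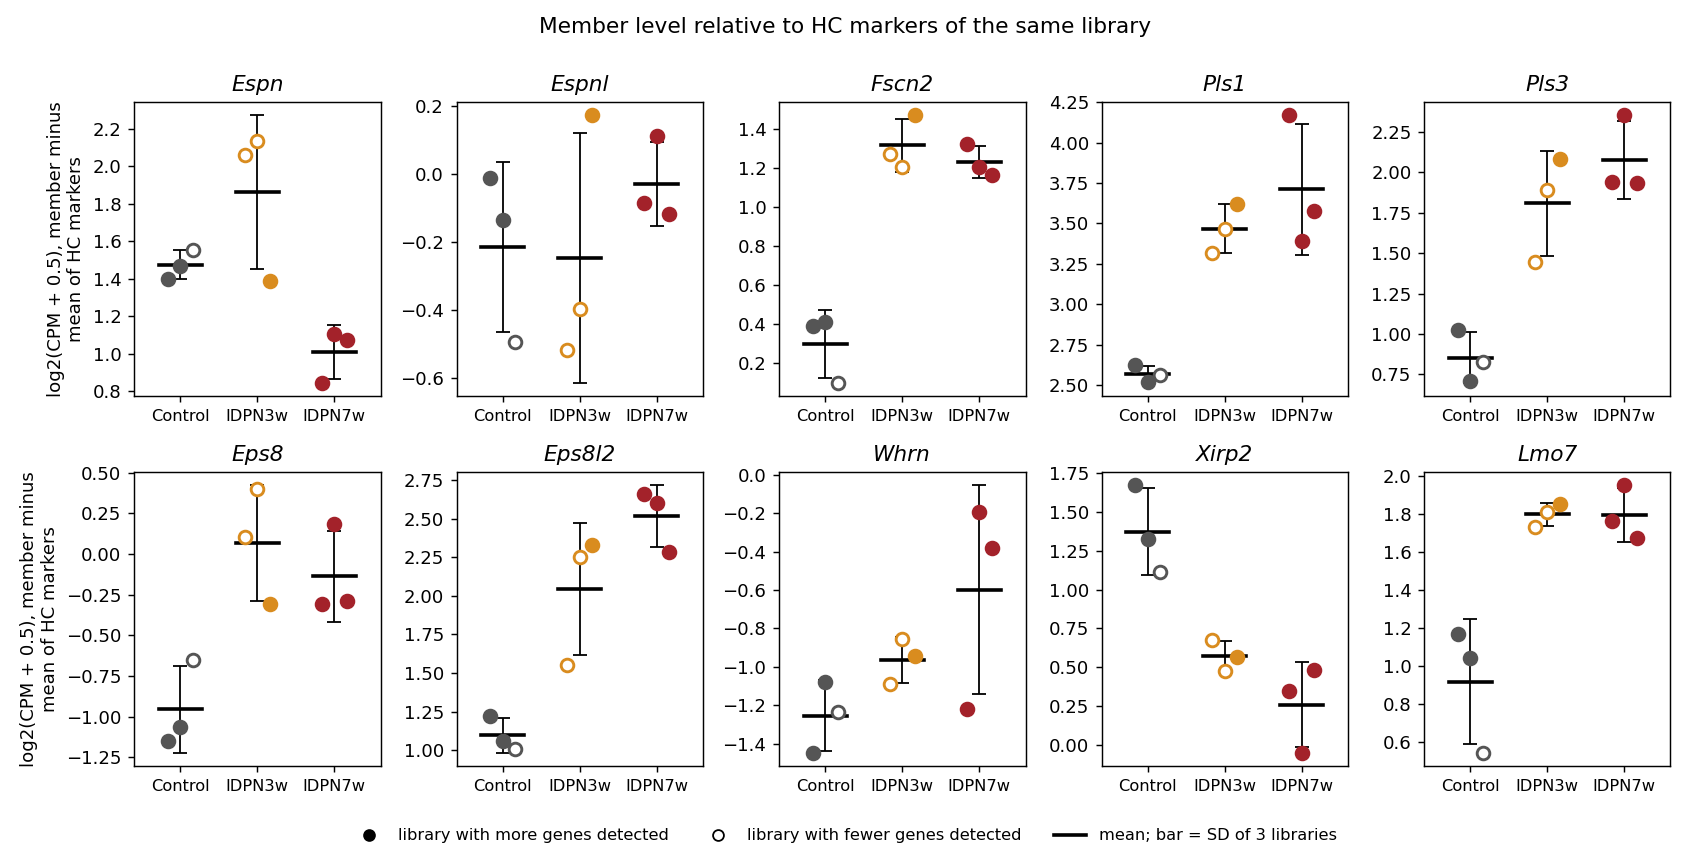
Log2(CPM + 0.5) of each of the 10 members minus the mean of 17 HC markers in the same library (vertical axis, log2 scale), by group; open points are the 3 libraries with fewer genes detected, bars are means and whiskers SD. Xirp2 is below Control in both exposed groups and Espn in IDPN7w, while Fscn2 is above in both on this scale, which uses the mean of the markers.

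Of the HC markers themselves, 4 of 17 were called lower in IDPN3w (Atp2b2, Otof, Tmc1 and Calb2) and 9 of 17 in IDPN7w (led by Atp2b2, Otof, Tmc1, Cabp2 and Slc17a8), with 0 called higher. The most abundant was Otof, which encodes the calcium sensor of HC synapses, at 715, 772 and 622 CPM in Control, 390.2, 377 and 293 CPM in IDPN3w and 362, 323 and 367 CPM in IDPN7w. Otof was below Control in all 6 exposed libraries. Of the type I HC markers, all 4 tested (Spp1, Kcna10, Atp2b2 and Kcnab1) were called lower in both groups. Kcna10, Atp2b2 and Kcnab1 are also in the study's own list of genes lower in all its comparisons, which include these libraries. The count for this list is therefore not independent of the earlier results. Kcnab1, a potassium channel subunit, fell from 115, 122 and 109 CPM in Control to 14.1, 8.72 and 17.1 CPM in IDPN3w and 10.1, 9.44 and 17.9 CPM in IDPN7w. None of the HC markers with a row was at 0 throughout, and the part of HC number in the members' values was not tested.

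Other proteins of the bundle gave a measure of how the members compare with their partners. Of 12 tip and length partners, 2 were called lower in both comparisons with Control (Myo15a and Myo3b) and 0 higher. Myo15a, the motor that brings whirlin and EPS8 to the tip, was at 87.9, 116 and 98.9 CPM in Control, 32.4, 29.0 and 22.3 CPM in IDPN3w and 26.3, 37.0 and 33.1 CPM in IDPN7w. It was below Control in all 6 exposed libraries (log2 fold changes -1.85 and -1.65, edgeR adjusted p = 0.00158 and 0.000803), while neither of its cargoes Eps8 and Whrn was called.

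Myo3b, a motor that carries espins in stereocilia, was at 51.1, 43.0 and 51.6 CPM in Control, 10.5, 16.3 and 18.4 CPM in IDPN3w and 20.3, 15.0 and 20.1 CPM in IDPN7w. Its log2 fold changes were -1.69 and -1.39 (edgeR adjusted p = 0.00679 and 0.00556). Its relative Myo3a, at 15.0, 15.3 and 10.3 CPM in Control, was not called in either group. Twf2, an actin capping protein, had an edgeR adjusted p of 0.0361 in IDPN7w at a log2 fold change of -0.36, short of the fold change threshold.

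Of 14 genes listed under the rootlet, taper and cuticular plate, 2 were called lower in both comparisons with Control and 0 higher. Ptprq, a phosphatase of the connectors between stereocilia shafts, was at 926, 1159 and 789 CPM in Control, 288, 352 and 289 CPM in IDPN3w and 292, 342 and 390.1 CPM in IDPN7w. Loxhd1, needed for the maintenance of mechanotransduction, was at 79.5, 108 and 88.8 CPM in Control, 27.6, 29.2 and 29.4 CPM in IDPN3w and 45.0, 29.8 and 36.8 CPM in IDPN7w. For both genes the exposed libraries were all below Control, with log2 fold changes of -1.63 and -1.49 for Ptprq and -1.68 and -1.31 for Loxhd1. Triobp, which bundles the rootlet, was not called (log2 fold change -0.10 and -0.34). Myo6, also in this list, had edgeR adjusted p of 0.0208 and 0.0163. Its log2 fold changes of -0.55 and -0.48 were short of the fold change threshold.

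Of 16 genes of actin and its turnover that were tested, 0 were called in IDPN3w, and in IDPN7w 2 were called higher (Tmsb10 and Tmsb4x, which bind actin monomers) and 0 lower. Tmsb10 was at 19.0, 21.2 and 12.1 CPM in Control, 28.4, 25.1 and 27.9 CPM in IDPN3w and 53.9, 42.9 and 45.6 CPM in IDPN7w. The IDPN7w libraries were the highest, 1.44 above Control on the log2 scale of the fit (edgeR adjusted p = 0.00325). Among the general actin crosslinkers, Flna, a filamin, was called higher in IDPN7w (log2 fold change 0.95, edgeR adjusted p = 0.0432), and with a library left out its edgeR adjusted p reached 0.153. Without IDPN7w replicate 1, Tmsb4x and Flna were at log2 fold changes of 0.46 and 0.66 and were not called, and Tmsb4x was not called without Control replicate 3 (0.55).

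Of 8 paralogs of the members, 6 were tested and 0 were called by edgeR in any of the 3 comparisons. Fscn1, Lcp1, Eps8l1, Pdzd7, Limch1 and Fscn3 had log2 fold changes of 0.05, -0.37, 0.11, -0.78, -0.27 and -2.41 in IDPN3w, and of -0.07, -0.17, 0.26, -0.06, 0.00 and -0.11 in IDPN7w. The median of the list was -0.32 and -0.07. Lcp1 had an unadjusted p of 0.0422 in IDPN3w (edgeR adjusted p = 0.297), and Fscn3 was under 1 CPM in every library. Fscn1, the fascin of most cells, was at 6.58 to 9.80 CPM in Control and 6.13 to 9.27 CPM in IDPN7w. Xirp1, the paralog of Xirp2 in muscle, had no count in any library.

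**Figure D4:**
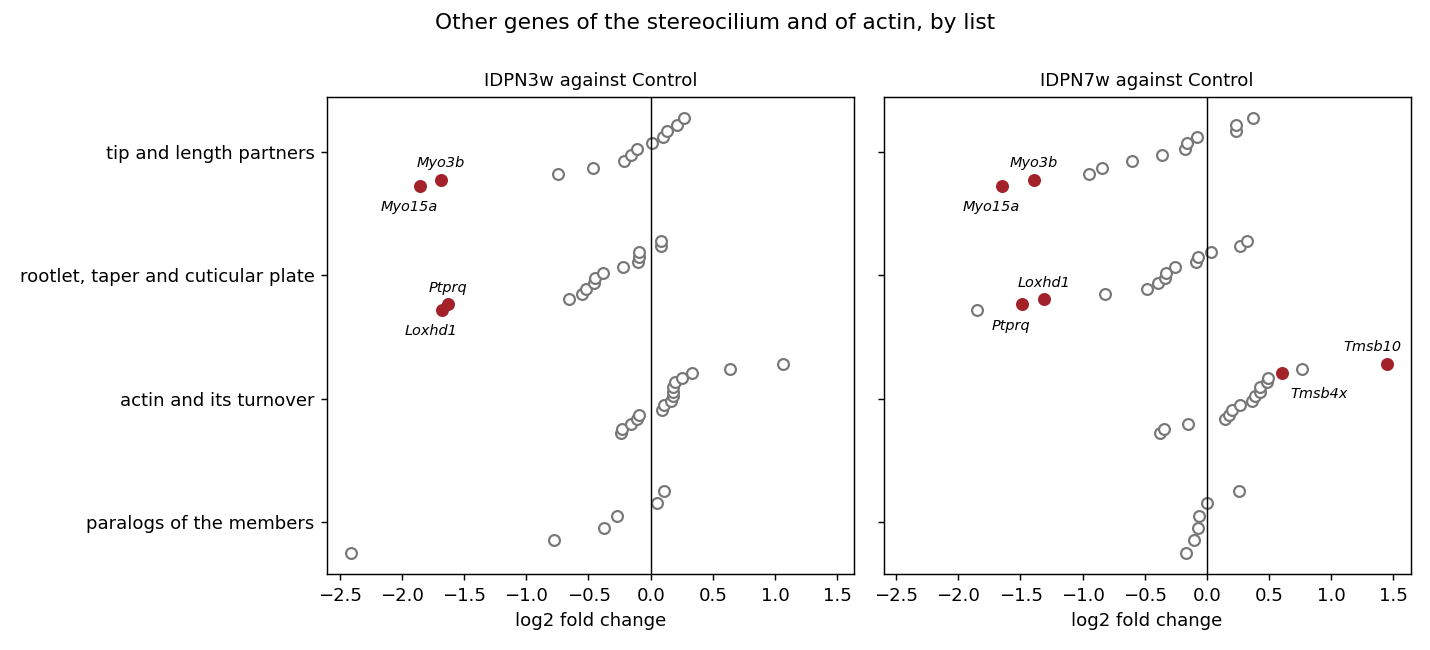
Log2 fold change (horizontal axis) of the tested genes of 4 lists in IDPN3w and IDPN7w against Control; each point is a gene, and filled, named points are called. Myo15a, Myo3b, Ptprq and Loxhd1 are called lower in both, while Tmsb10 and Tmsb4x are called higher in IDPN7w.

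Markers of cell types other than HCs were also called. Of 14 supporting cell markers tested, 1 was called lower in IDPN3w (Otogl) and 6 in IDPN7w (led by Otogl, Gjb6, Tectb, Otog and Sparcl1), and in IDPN7w against IDPN3w Gjb6 was called lower. Their summed level, led by Otog, was 16541, 16420 and 16989 CPM in Control, 10413, 13050 and 10507 CPM in IDPN3w and 6774, 9680 and 8709 CPM in IDPN7w. The 10 macrophage and leukocyte markers, led by Csf1r, summed to 120.1, 89.5 and 145 CPM in Control, 52.4, 151 and 60.0 CPM in IDPN3w and 291, 232 and 217 CPM in IDPN7w. In IDPN3w 2 of 3 libraries were below Control, with 0 called by edgeR, and in IDPN7w 1 was called higher (C1qb). Of the Schwann cell markers, Mbp and Pmp22 were called lower in IDPN7w. With a library left out, the call was lost in 5 of 9 fits for Mbp and 7 of 9 for Pmp22, among them those without any 1 of the Control libraries (edgeR adjusted p up to 0.121 and 0.135). In IDPN7w replicate 1, Mbp was at 485 CPM against 1141 and 1063 CPM in the other 2, and Pmp22 at 535 against 1109 and 1156 CPM. Without that replicate both stayed called, with log2 fold changes of -0.85 and -0.80. Of 8 broad epithelial and housekeeping genes, Krt8, a keratin, was called higher in IDPN7w (log2 fold change 1.13, edgeR adjusted p = 0.0231). The call of Krt8 was lost without Control replicate 1 or 2 (edgeR adjusted p = 0.0891 and 0.0959) and with the 6 libraries with more genes (0.0696). Krt8 was at 777 CPM in IDPN7w replicate 1 against 416 and 388 CPM in the other 2, and its log2 fold change was 0.74 without replicate 1. The part of these shifts in the members' values was not tested.

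CPM is not corrected for gene length, so the members were not ranked by level, and the most abundant marker of a list is so by CPM alone. RSEM divides reads between similar genes, so members of the espin, plastin and EPS8 families may share some. In the RefSeq annotation of GRCr8, long noncoding genes overlap Fscn2, Pls1, Eps8, Xirp2 and Lmo7. SMARTseq2 keeps no strand, so reads of such overlapping genes cannot be told apart from those of the member.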

How the data were processed

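The authors mapped SMARTseq2 reads with STAR 2.5.3a and estimated counts per gene with RSEM 1.3.0, per the submitters' processing notes. The deposited values are expected counts as whole numbers, without normalization, and they were used as given after rounding. The 15517 genes kept by filterByExpr were normalised by TMM and tested with the robust quasi-likelihood test of edgeR 4.0.16 (R 4.3.3) in 1 fit of the 9 libraries, with Benjamini-Hochberg adjustment over all genes tested. Standard errors and intervals came from the same fit, which has 6 residual degrees of freedom. The intervals also use the prior degrees of freedom that the fit gives each gene (median 4.07). DESeq2 1.42.0 was an alternative. Others were RLE size factors, 2 other filters, other fold change thresholds, the libraries of the compared groups alone, the set of libraries with fewer genes as a covariate, and each library left out. The steps were tested on simulated data. The members and gene lists were chosen with earlier results of these data known. All members are named, and of each list up to 5 called genes by smallest adjusted p; some results of listed genes are not reported here. Levels relative to HC markers used log2(CPM + 0.5). PCR copies without molecular identifiers are not independent molecules, so sampling noise alone would understate the error.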

Additional observations from a re-analysis of the deposited data

Results flagged for a closer look

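Of the members and listed genes, Spp1 and Gjb6 differed between the exposed groups, by the edgeR test of IDPN7w against IDPN3w. Spp1, which encodes osteopontin and marks type I HCs, was at 5154, 4805 and 5574 CPM in Control, 3236, 3105 and 2626 CPM in IDPN3w and 1338, 1643 and 1505 CPM in IDPN7w. The 3 groups did not overlap, and the log2 fold change between the exposed groups was -0.999 (edgeR adjusted p = 0.00326, lower in 3 of 3 libraries). With the 6 libraries with more genes detected alone, it was -0.82 (edgeR adjusted p = 0.0628), and over all alternatives the adjusted p ran from 9.75e-14 to 0.0628. Gjb6, a connexin of supporting cells, was at 1783, 1556 and 2066 CPM in Control, 1292, 1485 and 1495 CPM in IDPN3w and 783, 962 and 905 CPM in IDPN7w, a log2 fold change between the exposed groups of -0.69 (edgeR adjusted p = 0.0426, lower in 3 of 3 libraries). The call of Gjb6 was lost in 10 of 18 alternatives, where the adjusted p reached 0.253. None of the 10 members was called in this comparison by edgeR, and DESeq2 called Espn.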

How the results depend on the processing

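Of 540 values of members under 18 alternatives, 503 kept their direction and side of the threshold, 14 lost and 5 gained a call and 18 changed sign. No called value changed sign, and the losses were all of Espnl and the gains all of Espn. Members called in IDPN3w were 2, and 1 with the libraries of the 2 groups alone, 1 at a fold change above 2 and 1 to 2 with a library left out. In IDPN7w they were 3, and 2 to 3 with a library left out. Between the exposed groups they were 0, and 1 with DESeq2, 1 without the filter, 1 with at least 10 counts in every library and 0 to 1 with a library left out. The number of members without overlap relative to HC markers in IDPN3w was 7, and 3 with the median of the markers.

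None of the values that changed sign was called, and the cause was not tested. The largest of them in the fit of all libraries was that of Eps8 between the exposed groups, at -0.44. With the set of fewer genes as a covariate, Eps8 was at -0.0145 in IDPN3w, 0.0550 in IDPN7w and 0.0695 between the exposed groups, and Espnl at -0.20 between them. With the 6 libraries with more genes alone, Eps8 and Lmo7 were at -0.18 and -0.23 in IDPN3w, and Espnl, Pls3 and Eps8 at -0.21, -0.00705 and 0.18 between the exposed groups. With a library left out, log2 fold changes ranged from -0.0906 to 0.15 for Lmo7 in IDPN3w, and in IDPN7w from -0.14 to 0.0337 for Fscn2, -0.34 to 0.000726 for Eps8 and -0.0945 to 0.42 for Pls1. Between the exposed groups they ranged from -0.0486 to 0.15 for Espnl, -0.0300 to 0.15 for Pls3 and -0.19 to 0.33 for Pls1.

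Listed genes called in IDPN3w were 14, and 30 with DESeq2. In IDPN7w they were 36, and 51 with DESeq2 and 26 to 45 with a library left out. Between the exposed groups they were 2, and 19 with DESeq2, 0 at a fold change above 2, 1 with the covariate and 1 to 5 with a library left out. Of 1151 values of called listed and most alike genes, 134 lost the call and 0 changed sign.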

Other observations

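Of 5 type II HC markers, 1 was called lower in both comparisons with Control (Calb2), and their summed level, led by Anxa4, was 366 to 398 CPM in Control, 299 to 359 CPM in IDPN3w, below every Control library, and 369 to 459 CPM in IDPN7w. The 8 neuron markers, which also hold Calb2, summed to 135 to 153 CPM in Control, 102 to 105 CPM in IDPN3w and 90.8 to 133 CPM in IDPN7w, and both exposed groups lay below Control. Of these 8, 2 were called in IDPN3w and 3 in IDPN7w. Among them Snap25, a protein of vesicle fusion, was called lower in both (log2 fold change -1.58 and -1.85) and Uchl1, a ubiquitin hydrolase, higher in IDPN7w (1.36). Of 4 melanocyte markers, 0 were called by edgeR or DESeq2, and Pmel, the most abundant, was at 435 to 466 CPM in Control and 391 to 428 CPM in IDPN7w. Of 9 smooth muscle and fibroblast markers tested, Lum was called lower in IDPN7w (log2 fold change -1.83), and of 5 endothelial markers Cdh5 was called higher there (log2 fold change 0.67). These last 2 calls were lost without any of several libraries, with edgeR adjusted p up to 0.0700 for Lum and 0.185 for Cdh5, as was that of Calb2 in both comparisons. The call of Snap25 in IDPN3w was lost without Control replicate 2 (edgeR adjusted p = 0.0643).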
